A study of Homo sapiens with 8 samples.

Results

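Estrogen receptor (ER) sites that were lost after depletion of cyclin-dependent kinase 12 (CDK12), and that held no estrogen response element (ERE) at their summit, were examined in LY2 breast cancer cells. LY2 is an endocrine-resistant line derived from MCF-7. The peaks of 4 ER chromatin immunoprecipitation sequencing (ChIP-seq) libraries were merged into 25365 sites wherever they overlapped by at least 1 bp. A site was called lost when it had a peak with a q-value under 0.05 in both control siRNA (siCtrl) libraries and in neither CDK12 siRNA (siCDK12) library. Of the 455 lost sites, 331 had no ERE within 100 bp of the summit of the stronger siCtrl peak, and these 331 are the sites described here. Lost sites made up 1.79% of all merged sites and 68.2% of the 667 sites with a peak in both siCtrl libraries. The sites were selected on the q-values themselves, so nothing is read from these shares, and the absence of a siCDK12 peak at them is their definition.

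All cells were first kept for 24 h in depleted serum without 4-hydroxytamoxifen, then transfected with siRNA for 48 h and stimulated for 1 h with β-estradiol at 1 µmol/L, in both conditions. The siCtrl libraries were replicates 2 and 3 and the siCDK12 libraries were replicates 3 and 4, giving 2 libraries per condition. The siCtrl libraries had 12021 and 4955 peaks with a q-value under 0.05, against 4819 and 5224 in the siCDK12 libraries, so siCtrl replicate 2 stood apart. Peak lists do not measure CDK12, so the knockdown itself could not be checked from them, and input libraries were not analysed here. With 2 libraries against 2, an exact two-sided permutation test of any single value cannot give a p below 0.333, so no site was tested between conditions.

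ER is a ligand-activated nuclear receptor that binds DNA as a dimer. Its consensus element is an inverted repeat of a short half-site, and natural elements often depart from this consensus. The receptor is also known to reach DNA through single half-sites and through other factors, such as the AP-1 complex of FOS and JUN proteins. The forkhead protein FOXA1, GATA3 and AP-2γ are known to accompany it in luminal breast cells. CDK12 phosphorylates the tail of RNA polymerase II and acts in transcription elongation.

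The consensus used was GGTCANNNTGACC, in which N is any base, and a window with at most 1 mismatch in the 10 fixed bases was taken to hold an ERE. The element reads the same on both strands. The sites passed over by that limit were often near misses, and the elements of the 4 strongest sites with 2 mismatches show how. Strength was ranked by the mean percentile of −log10 q over the siCtrl libraries. Each sequence below is from the plus strand of GRCh38 (hg38), with the element in capitals, and was found within 100 bp of the summit.
SPNS2 intron, chr17:4533864-4533892: caggccgaGGTCACCTTGTGCtgctgacc
UMODL1 intron, chr21:42106513-42106541: aggggtcaGGTTGTCGTGACCttatcttt
CUX1 intron, chr7:102004329-102004357: aatgaagaGGTTGCCCTGACCtggtggtg
GSE1 gene, chr16:85466179-85466207: caaagccaGGTCGTGGTAACCtggctgcc
Positions are counted from 1 at the 5′ end of the element, with the consensus base first and the genome's base last. The SPNS2 element carried A11T and C12G. The UMODL1 and CUX1 elements carried the same pair, C4T and A5G. The GSE1 element carried A5G and G10A. In 3 of these 4 elements, all but that of GSE1, the mismatches fell in the same arm, which left the other arm as a perfect half-site.

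Elements near genes of the estrogen response had the same form. They are shown because their sites are among those that the list of estrogen-responsive genes picked out. PDZK1 is a scaffold protein induced by estradiol, GREB1 is an ER coregulator induced by estradiol, NRIP1 is a corepressor of nuclear receptors, XBP1 is a transcription factor of the unfolded protein response and TGM2 is a transglutaminase.
PDZK1 promoter, chr1:145708334-145708362: caggccgaGGACTGGGTGACCtcacccct
GREB1 gene, chr2:11531129-11531157: gtcagctcAGTCAGTGTCACCcaggcctg
GREB1 intron, chr2:11539669-11539697: tgtgtggaGAGCACTGTGACCcagcaaaa
NRIP1 nearest, chr21:15210464-15210492: caaacagaGGTCACTGTGGCTctctcctg
XBP1 nearest, chr22:28813887-28813915: atctgcccTGTTAGTGTGACCtggaacaa
TGM2 intron, chr20:38145175-38145203: agaacctaGGTTAGGCTGCCCtgacccag
The PDZK1 element carried T3A and A5T. The GREB1 elements carried G1A and G10C, and G2A and T3G. The NRIP1, XBP1 and TGM2 elements carried A11G and C13T, G1T and C4T, and C4T and A11C.

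A strong site without even such an element is shown as a contrast. The site in intron 1 of OSTF1 held 4 copies of the 5-base half-site within its 201-bp window, chr9:75101141-75101341, and these are in capitals.
OSTF1 intron: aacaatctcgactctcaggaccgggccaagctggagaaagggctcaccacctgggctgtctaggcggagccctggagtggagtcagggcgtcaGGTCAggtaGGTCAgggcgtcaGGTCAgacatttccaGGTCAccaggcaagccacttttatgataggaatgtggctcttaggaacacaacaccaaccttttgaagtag
No arrangement of these copies made an ERE with at most 2 mismatches. Fold enrichment, which is the fragment pileup at the summit over the local background with 1 added to each, was 18.8 at this site in siCtrl replicate 2, and siCtrl replicate 3 gave 11.7. The first of these was the highest of the 331 in its library, and the other was number 7.

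A 2-mismatch ERE was present at 138 of the 331 summits (41.7%, 95% exact interval 36.3 to 47.2). Windows of the same 201 bp centred 1000 bp downstream held an element with at most 2 mismatches at 26 of the same sites (7.85%, 5.20 to 11.3). The difference was 33.8 percentage points, with 127 sites positive at the summit alone and 15 beside it alone (exact two-sided McNemar test, adjusted p = 3.05e-22 over 11 motifs). Over all 25365 merged sites the share was 11.5%. The rule had removed elements with 0 or 1 mismatch from the summit windows but not from the windows beside them, so the comparison was made against the summits. Sites are not replicates of a condition: all come from the same siCtrl libraries, and these tests compare positions in the genome, not the conditions.

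The 6-base half-site AGGTCA, read on both strands, was present at 145 summits (43.8%, 38.4 to 49.3) and in 48 windows beside them (14.5%, 10.9 to 18.8). This also passed the test (exact McNemar, adjusted p = 2.58e-15), and the share over all merged sites was 19.2%. The motifs overlap, because the AGGTCA sequence can lie in an arm of a 2-mismatch ERE. Both were present at 87 sites, the element alone at 51, the half-site alone at 58 and neither at 135 (40.8%). The shorter GGTCA was found at least 3 times in 44 summit windows (13.3%) and in 3 windows beside them (0.906%), with no test made of that count.

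The 138 elements lay close to the summit. The centre of the element was within 25 bp of the summit at 84 sites and within 50 bp at 119 sites. Matches with at most 2 mismatches averaged 22.4 per 100 sites in each 50-bp bin within 50 bp of the summit, and 1.71 per 100 sites per bin beyond 500 bp. The half-site showed the same shape, with 23.4 and 3.81 matches per 100 sites per bin.

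**Figure D1:**
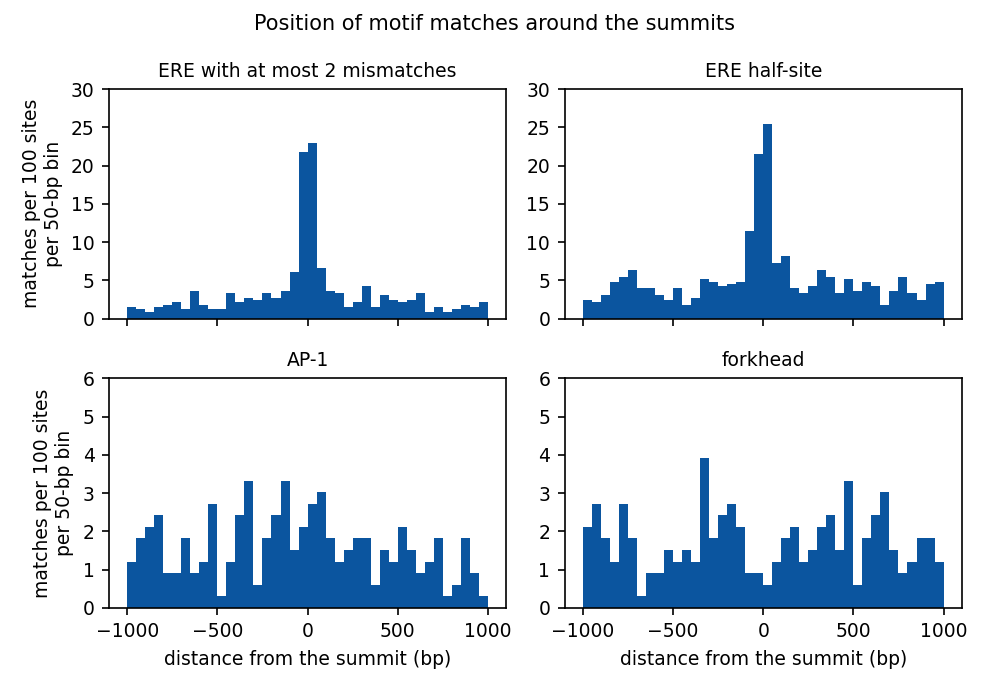
Matches per 100 sites (y axis) in 50-bp bins of distance from the summit (x axis, bp) for 4 motifs over the 331 lost sites without an ERE; the lower panels have a shorter y axis. The element with at most 2 mismatches and the half-site peak in the bins next to the summit, near 22.4 and 23.4 matches per 100 sites, while AP-1 and forkhead matches stay under 4 per bin.

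Mismatches were not spread evenly over the element. Position 11 was mismatched in 48 of the 138 elements and position 3 in 41, while position 12 was mismatched in 11 and position 2 in 19. Positions 3 and 11 are partners in the inverted repeat, as are positions 2 and 12. The mismatches fell in the same arm in 77 elements (55.8%) and were split between the arms in 61, with no test made of this. Read on the plus strand, the most frequent single change was A11C, in 27 elements. T3G, in 19 elements, is the same change seen from the other strand. Differences between partner positions therefore depend only on orientation.

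Motifs of other factors were less frequent, and only 1 of them passed the test against the windows beside the summits. AP-2, searched as GCCNNNGGC, was present at 34 summits (10.3%) and in 12 windows beside them (3.63%; exact McNemar, adjusted p = 0.00462). Summit windows had a median GC content of 52.2%, against 43.8% beside them, and the part of this difference in the GC-rich AP-2 match was not tested. Over all merged sites the AP-2 share was 6.13%. The GC box of SP1-type factors, GGGCGG, was at 34 summits against 19 windows beside them (exact McNemar, adjusted p = 0.0785). Its share was 10.3% at these summits and 4.56% over all merged sites.

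AP-1 motifs, TGANTCA, were found at 30 summits (9.06%, 6.20 to 12.7) and in 14 windows beside them (4.23%, 2.33 to 6.99). The difference of 4.83 percentage points did not pass the exact McNemar test after adjustment (adjusted p = 0.0622, unadjusted p = 0.0226). The share over all merged sites was 6.49%. Among the 135 sites with neither form of ER element, 9 held an AP-1 match (6.67%, 3.09 to 12.3). Forkhead motifs, TGTTTAC or TATTTAC, went the other way, with 11 at the summits (3.32%) and 22 beside them (6.65%; exact McNemar, adjusted p = 0.13). Over all merged sites the forkhead shares were close to these, at 3.23% and 7.63%. The part of the GC difference in this AT-rich match was not tested. The GATA motif AGATAA was at 36 summits (10.9%) and in 40 windows beside them (12.1%), against 7.27% and 15.2% over all merged sites. The RUNX, TEAD, ETS and GRHL motifs were at 5 to 12 summits each, and neither GATA nor any of these was past the test.

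**Figure D2:**
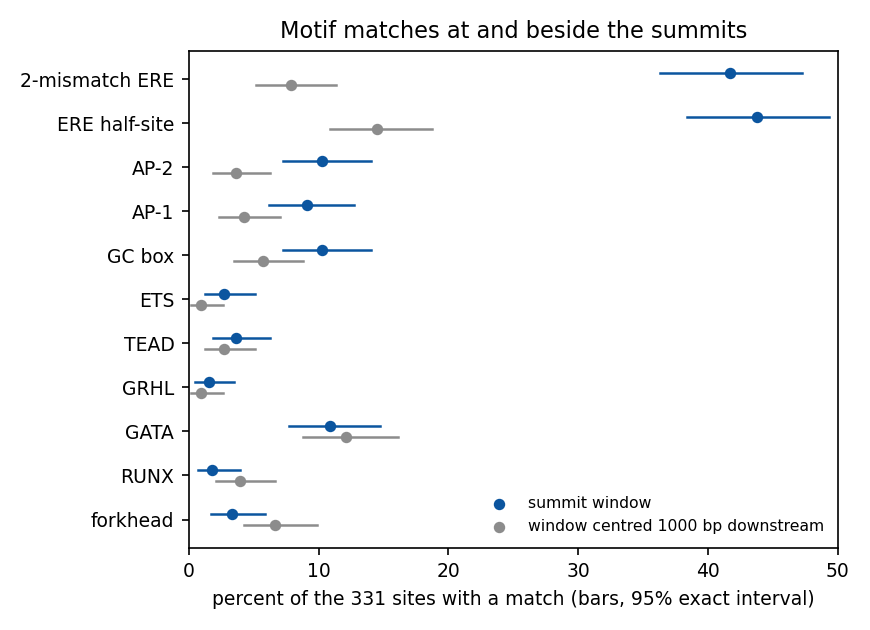
Percent of the 331 lost sites without an ERE with a match (x axis) for each of 11 motifs (y axis), at the summit window and in the window centred 1000 bp downstream; bars are 95% exact intervals. The 2-mismatch ERE (41.7% and 7.85%) and the half-site (43.8% and 14.5%) are far apart between the windows, and the intervals of AP-1 overlap.

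Peaks at the 331 sites were of moderate height. Fold enrichment ranged from 1.85 to 18.8 with a median of 4.65 for siCtrl replicate 2, and from 1.79 to 20.1 with a median of 4.54 for siCtrl replicate 3. The pileup at the summit had medians of 24 and 22 fragments. The −log10 q values, which chose the sites, had medians of 5.57 and 4.08, with 113 sites at 5 or above in both libraries. The summits of the libraries lay a median of 26 bp apart, and within 50 bp of each other at 247 sites (74.6%).

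Fold enrichment, but not the pileup, went with the element at the summit. The 138 sites with a 2-mismatch ERE had median folds of 7.35 and 5.73 in siCtrl replicates 2 and 3. The 58 sites with only a half-site had medians of 4.75 and 4.15, and the 135 with neither had 3.60 and 3.53. Median pileups were 24.5 and 21.5 fragments with a 2-mismatch ERE, 21 and 21.5 with only a half-site, and 26 and 23 with neither. By fold, the strongest group was thus the one that missed the ERE limit by a single base. These are descriptions: the siCtrl peaks also chose the sites, and no test was made.

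**Figure D3:**
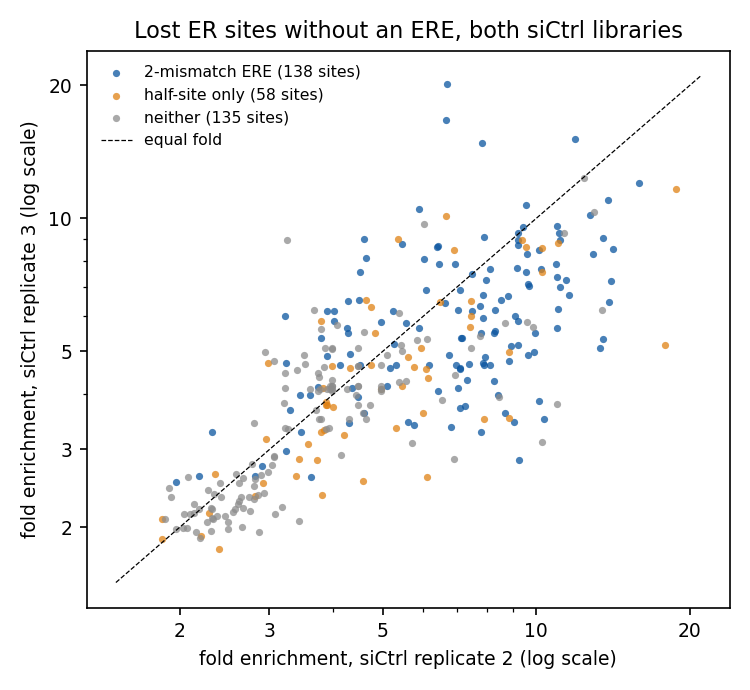
Fold enrichment of each of the 331 lost sites without an ERE in siCtrl replicate 2 (x axis) and siCtrl replicate 3 (y axis), both on a log scale, coloured by the element at the summit; the dashed line marks equal fold. Sites with a 2-mismatch ERE, with medians of 7.35 and 5.73, lie mostly above the sites with neither element, with medians of 3.60 and 3.53, and siCtrl replicate 3 tends to lie below the line at high folds.

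Set among all 455 lost sites, the sites with 2 mismatches were closer in fold to those with an ERE than to those with a poorer match, again as a description. Median folds in siCtrl replicate 2 were 8.51 with a perfect element (26 sites), 7.20 with 1 mismatch (98 sites), 7.35 with 2 (138 sites) and 3.83 with 3 or more (193 sites). In siCtrl replicate 3 they were 6.15, 5.60, 5.73 and 3.78. The distance between the summits of the libraries had medians of 10, 18, 19 and 32 bp in the same order.

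The strongest sites illustrate these levels. The leading site lay in an intron of SPNS2, a sphingosine-1-phosphate transporter, 848 bp from the start of one of its coding transcripts (chr17:4533763-4534021). Its fold reached 6.64 in siCtrl replicate 2, against 16.7 in replicate 3, with pileups of 48 and 50 fragments. The folds differ because the local background was 6.38 in the first library and 2.05 in the other. The next site, in an intron of UMODL1 (chr21:42106407-42106651), had folds of 10.2 and 7.67. Among the 15 strongest were also sites in or near OSTF1, USP31, CDHR3, TP63 and TRAPPC1.

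A pair of the 15 strongest sites lay by TH, the tyrosine hydroxylase gene of catecholamine synthesis. The site in its intron 2 (chr11:2169115-2169448) had folds of 15.9 and 12.1, and the intergenic site 21621 bp from its start (chr11:2193297-2193620) had folds of 13.8 and 10.99. Both held a 2-mismatch ERE. The site on chromosome 17 with TRAPPC1 as the nearest coding gene by gene start, at 19817 bp, lay 4316 bp from a coding transcript start of CNTROB and had folds of 12.4 and 12.4 with neither element in its window.

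Promoters took a small share. The summit was within 1000 bp of the start of a protein-coding transcript at 20 sites (6.04%, 3.73 to 9.18). Outside promoters, 134 lay in an intron of a protein-coding gene (40.5%), 43 in an intron of another gene, 12 in an exon and 122 outside every canonical transcript (36.9%), of which 107 were outside every annotated gene. Of the 134 intronic sites, 31 were in the first intron. The median distance to the nearest start of any GENCODE gene was 21348 bp, and to that of a protein-coding gene 72091 bp.

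The strongest promoter sites after SPNS2 were those of PDZK1, DECR1, OAZ3, WNT16, OPRL1, CCDC88C and CD22. The PDZK1 site (chr1:145708196-145708500) had its summit 220 bp from the start of the gene, with folds of 13.4 and 5.09 and the highest −log10 q of all the sites in siCtrl replicate 2, 46.6. DECR1, a mitochondrial enzyme of fatty acid oxidation, had folds of 8.70 and 5.79. WNT16, a secreted Wnt ligand, had 9.44 and 9.59, and OPRL1, the nociceptin receptor, had 11.1 and 6.98. CD22, a B-cell lectin, had 7.08 and 6.88 with its summit 21 bp from the gene start. Of these 8 promoters, 6 held a 2-mismatch ERE, and DECR1 and CCDC88C did not. The share over all 331 sites was 41.7%. These promoters were picked by strength, which went with the element, so nothing is read from this about promoters.

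Genes of the estrogen response were the nearest coding gene, by the distance to the gene's start, of 15 of the sites. They were 13 of the 73 listed genes found in the annotation (17.8%), against 250 of all 20033 protein-coding genes (1.25%). The genes were ABCA3, ELOVL5, GREB1, MYC, NRIP1, PDZK1, PRSS23, RET, SERPINA1, SIAH2, TGM2, THSD4 and XBP1. The list was drawn up with earlier results of these data known and the nearest gene need not be the regulated one, so the share is a description.

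Most of these sites held an element that missed the ERE limit. Of the 15, only the site in PVT1 next to MYC lacked a 2-mismatch ERE, which 41.7% of all 331 sites held. No test was made of this. Lost sites with an ERE were nearest to 7 of the listed genes, among them MYC, NRIP1 and THSD4. ELOVL5, a fatty acid elongase, was nearest to the highest of them (chr6:53464962-53465241), with folds of 7.84 and 14.8, at a distance of 115924 bp. By transcript starts this site was nearer to GCLC, at 45345 bp, and it was the only 1 of the 15 whose nearest gene differed by that measure, against 38 of all 331. The GREB1 sites, at chr2:11531002-11531230 and chr2:11539590-11539825, had folds of 7.93 and 4.85 and of 8.86 and 4.77. The second lay in GREB1 intron 1, 152 bp from the start of a coding transcript. The NRIP1 site (chr21:15210262-15210563), 144492 bp from the gene start, had folds of 9.92 and 4.98.

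ABCA3, a lipid transporter, had a site 960 bp from its start with folds of 8.30 and 5.57 and another in its exon 2 with folds of 7.32 and 4.32. XBP1 had folds of 8.10 and 4.67, SIAH2, a ubiquitin ligase, 7.25 and 3.77, and RET, a receptor tyrosine kinase, 9.05 and 3.46. TGM2 had 5.89 and 10.5, in intron 6. THSD4 had 7.89 and 4.66, SERPINA1, the α1-antitrypsin gene, 6.80 and 3.38, and PRSS23, a serine protease, 4.31 and 4.92. In 12 of the 15 the fold was higher in siCtrl replicate 2 than in replicate 3, and the exceptions were ELOVL5, TGM2 and PRSS23. The share by fold over all 331 sites was not counted. By the percentile of −log10 q, siCtrl replicate 2 was the higher at 245 of the 331 (74.0%), so nothing is read from the 12.

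The shorter lists of other regulators gave 1 to 3 genes each, beside the 1.25% of all coding genes. Of 18 listed ER coregulators, NRIP1, NCOA3 and PPARGC1B had 1 site each (16.7%), and of 20 luminal transcription factors XBP1 alone did (5%). Of 12 AP-1 family genes only FOSL2 had a site (8.33%). It lay 15109 bp from the FOSL2 start (chr2:28377232-28377459), with folds of 13.5 and 5.32, and its 2-mismatch ERE carried G2A and T3A.

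The 5 strongest sites with an AP-1 match each held a 2-mismatch ERE or a half-site, as did 196 of all 331 sites (59.2%). They were picked by strength, which went with the element, so nothing is read from this about AP-1. Of the 5 strongest, those nearest RAD23B, CHMP6, RGS9 and SYNDIG1 had a 2-mismatch ERE as well, and the one nearest CYP24A1 had a half-site. The AP-1 matches of the sites nearest SYNDIG1 and RGS9 are shown in capitals, as examples from sites that also held an ER element.
SYNDIG1 intron, chr20:24660159-24660181: ggcaaccaTGAGTCAgattcctt
RGS9 nearest, chr17:65243903-65243925: ccagaaagTGACTCAgattcccc
The AP-1 match in SYNDIG1 intron 3 began 14 bp after the start of its 2-mismatch ERE, and folds there were 10.99 and 9.62. At the site nearest RGS9 folds were 8.10 and 7.67.

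The sites also differed in their local background. This is the fragment count expected around the peak, against which the peak caller had tested it. It was expressed over the smallest value that 50 or more peaks of the library had in common, here called the genome background. A ratio above 3 was called high. High background marked 129 of the 331 sites (39.0%, 33.7 to 44.5) and 23 of the 124 lost sites with an ERE (18.5%, 12.1 to 26.5). The difference of 20.4 percentage points passed Fisher's exact test (two-sided, adjusted p = 0.000375 over 47 tests). Background enters the q-values that chose the sites of both groups, so the difference is given as a description. It reversed at a fold of 5 or above (-1.42) and without siCtrl replicate 2 (-10.3) or 3 (-5.55). At 68 sites the ratio was above 10.

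High background went with few elements. A 2-mismatch ERE was present at 33 of the 129 sites with high background (25.6%) and at 105 of the 202 others (52.0%). Neither element was present at 71 (55.0%) and 64 (31.7%). Median folds at high background were 2.98 and 2.63 on median pileups of 40 and 37 fragments, and elsewhere 6.40 and 5.25 on pileups of 17.5 and 17. So the peaks of the first kind held more fragments and stood less far above their surroundings. The part of background in the difference between the element groups was not tested.

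**Figure D4:**
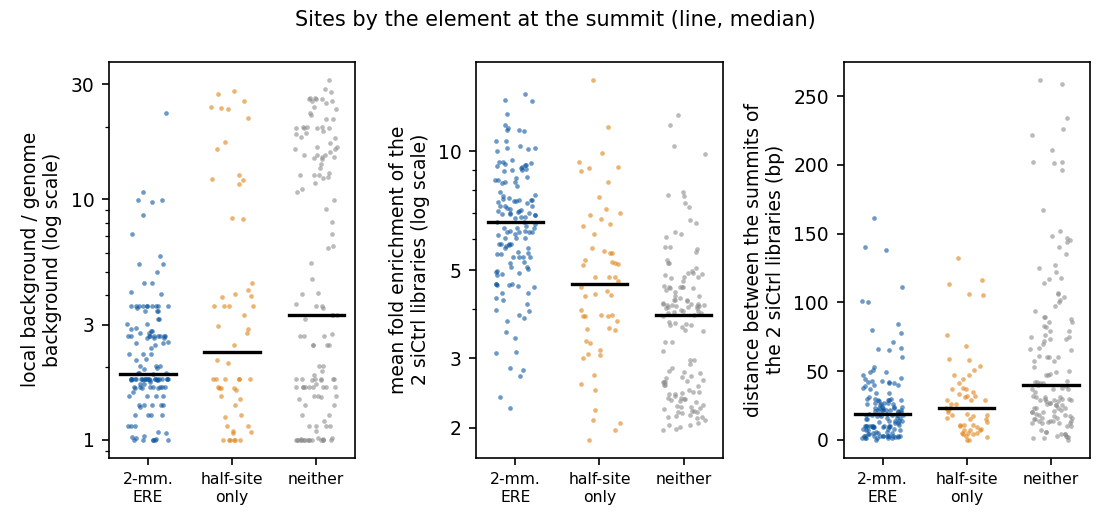
The 331 lost sites without an ERE by the element at the summit, with each point a site and the line the median: local background over that of the genome (left, log scale), mean fold of the 2 siCtrl libraries (middle, log scale) and distance between the summits of the siCtrl libraries in bp (right). Sites with neither element reach the highest backgrounds, have the lowest folds and have summits a median of 40 bp apart, against 19 bp with a 2-mismatch ERE ("2-mm. ERE").

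Sites clustered in a few segments of the genome. Another lost site was within 100 kb of 113 of the 331 sites (34.1%, 29.0 to 39.5) and of 16 of the 124 lost sites with an ERE (12.9%, 7.56 to 20.1; Fisher's exact test, adjusted p = 6.45e-05). Neighbouring lost sites count each other and so are not independent, which neither the test nor the intervals allow for. The summits of the siCtrl libraries were within 50 bp of each other at 74.6% of the sites against 87.1% (Fisher's exact test, adjusted p = 0.0329). None of the 3 differences, that in background included, was past the threshold when every peak had to reach a −log10 q of 5. That setting gave 148 sites. The limit held for siCDK12 peaks too, so not all of these are among the 331, of which 113 reached it in both siCtrl libraries. The differences in clustering and in summit distance were not past the threshold among sites of low background either (Fisher's exact test, adjusted p = 0.949 and 0.398). No other of the 15 features compared with the lost sites with an ERE passed, among them promoter position (6.04% against 4.84%) and AP-1 (9.06% against 8.06%).

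Chromosome 20 held 47 of the 331 sites (14.2%) against 5.51% of all merged sites, and chromosome 17 held 37 (11.2%) against 4.84%. Of these, 39 and 28 had high background. All merged sites include those with a peak in a single library. The chromosome shares among the 667 sites with a peak in both siCtrl libraries were not computed. Segments of 1 Mb with at least 4 of the sites, joined where adjacent, gave 7 segments with 79 sites (23.9%). Only 7 of the 79 held a 2-mismatch ERE (8.86%), against 131 of the 252 sites elsewhere (52.0%). The first share was near the 7.85% found beside the summits, and no test was made of it.

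The largest segments lay on chromosome 20 between 53 and 55 Mb, with 28 sites, and on chromosome 17 between 60 and 62 Mb, with 23. Both are known to be amplified in breast cancers and in MCF-7. Background ratios of the sites had medians of 16.8 and 19.9. Genes on the list of those amplified in breast cancer were nearest to 46 sites, among them DOK5 (16 sites), BRIP1 and BCAS1 (7 each), TBX2 (4), and CYP24A1 and ZNF217 (3 each). These genes were 12 of the 24 listed (50%), against 1.25% of all coding genes. The list holds genes of these same segments, so the share is a description. BRIP1 is a DNA helicase of the Fanconi pathway, and ZNF217 is a transcription factor. The highest of these sites, 24712 bp from CYP24A1, the vitamin D 24-hydroxylase gene (chr20:54149175-54149368), had pileups of 114 and 116 fragments and folds of 4.57 and 2.55. Copy number and depth of these segments were not measured here.

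The segments were not empty in the siCDK12 libraries. In the segment of chromosome 20 between 53 and 55 Mb the siCtrl libraries had 247 and 154 peaks and the siCDK12 libraries had 135 and 136. In that of chromosome 17 the counts were 194, 145, 132 and 145. Median background ratios at these peaks were close in all libraries, at 17.1, 20.6, 17.3 and 18.8 on chromosome 20. These segments also held 6 and 12 sites present in all 4 libraries, and 24 and 29 present in both siCtrl libraries and 1 siCDK12 library. They held 28 and 23 of the sites described here and 1 lost site with an ERE each. Lost sites thus made up a smaller share there than the 68.2% of all 667 sites with a peak in both siCtrl libraries.

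A segment on chromosome 10 between 126 and 127 Mb was of another kind. It was picked out after its values were seen. It held 4 of the sites, near DOCK1 and ADAM12, at a median background ratio of 1.47. The siCtrl libraries had 8 peaks each there and the siCDK12 libraries had 0.

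**Figure D5:**
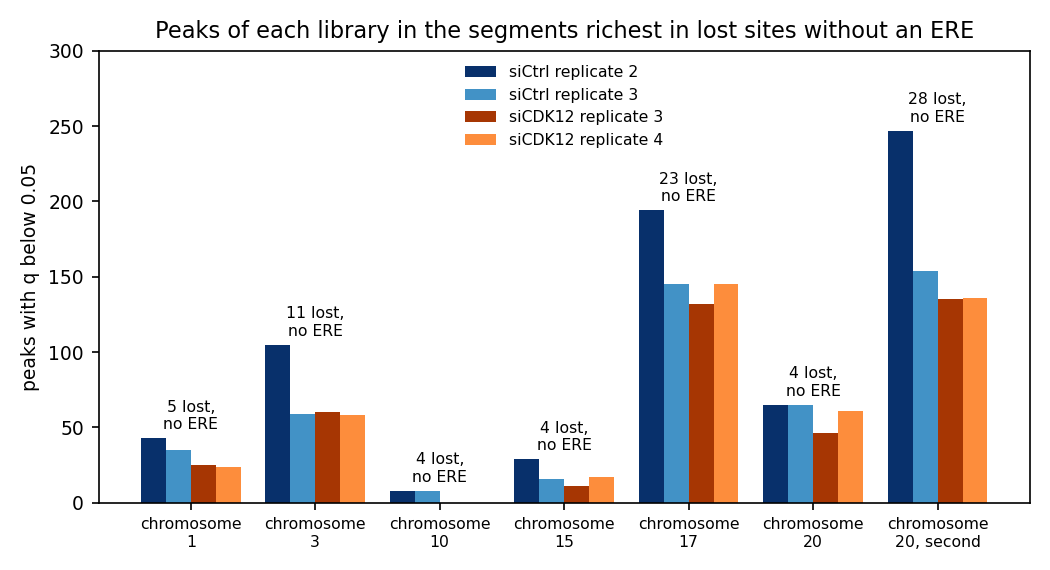
Peaks with a q-value under 0.05 (y axis) in each of the 4 libraries, in the 7 segments (x axis, by chromosome) with at least 4 lost sites without an ERE per 1 Mb; numbers above the bars count those sites. The siCDK12 libraries had 135 and 136 peaks in the second segment of chromosome 20 and 0 in that of chromosome 10.

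Sites without an ERE that kept a peak in all 4 libraries were set beside the lost ones. The 50 kept sites had a 2-mismatch ERE in 52.0% (37.4 to 66.3) against 41.7%, and a half-site in 52.0% against 43.8%. Neither difference passed (Fisher's exact test, adjusted p = 0.544 and 0.618), although both did without either siCtrl library, when 4384 or 11131 sites were compared. With 50 kept sites the intervals are wide, so this does not show that the shares are alike. AP-1 was at 1 of the 50 kept sites and at 30 of the 331 lost ones (Fisher's exact test, adjusted p = 0.363). High background and a lost site within 100 kb were more frequent at kept sites, at 64.0% and 58.0%, and these were the features past Fisher's exact test (adjusted p = 0.0106 and 0.0124). Both bear on whether a peak is listed, so nothing is read from them.

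Kept sites were higher. Their median pileups were 66 and 62.5 fragments in the siCtrl libraries, and 34.5 and 33.5 in siCDK12 replicates 3 and 4. Median folds were 11.6 and 9.79 with siCtrl, and 4.16 and 4.11 with siCDK12. Read depth is unknown and no site was tested between conditions, so nothing is read from siCtrl beside siCDK12 values. The lost sites had siCtrl pileups of 24 and 22. Kept sites had to pass the q-value limit in all 4 libraries, so their greater height is largely fixed by that choice. Background was higher at the kept sites, with medians of 4.94 and 4.55 times that of the genome against 2.70 and 2.48, and the height needed for listing was not computed for them. At the background of each lost site, a pileup with a median of 12 fragments would have been listed in either siCDK12 library.

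The pileup needed for listing varied among the sites. Scaled by the genome background of each library, the pileup needed in siCDK12 was a median of 0.625 of that in siCtrl, and below 0.5 at 112 sites (33.8%). The sites were chosen for siCtrl peaks past the q-value limit, so values below 1 are largely fixed by that choice, and the siCtrl background is taken to hold in the siCDK12 libraries. Weak siCDK12 peaks with a q-value of 0.05 or above overlapped 13 of the sites (3.93%), 7 in each library with 1 in both.

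Sites without an ERE that appeared only after CDK12 depletion had fewer ER elements. Gained sites with an ERE were left out of this comparison. Of the 87 gained sites chosen to lack an ERE, 8 held a 2-mismatch ERE (9.20%, 4.05 to 17.3) against 41.7% of the lost sites, and 13 held a half-site (14.9%, 8.20 to 24.2) against 43.8%. Both differences passed Fisher's exact test (adjusted p = 1.09e-07 and 9.93e-06). Gained peaks were weak, with median folds of 3.67 and 3.75 and median −log10 q of 2.11 and 2.29, and high background marked 48.3% of them. At a −log10 q of 3 or above the half-site difference no longer passed (Fisher's exact test, adjusted p = 0.859), and at 5 or above neither did (both 0.238). Without siCtrl replicate 2 or 3 the 2-mismatch ERE difference of 32.5 percentage points shrank to 5.53 and 0.421 (Fisher's exact test, adjusted p = 0.221 and 1). None of the other 13 features passed, among them position in a gene (51.1% against 36.8%, Fisher's exact test, adjusted p = 0.102).

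Near the limit of the q-value, the lowest site inside was on chromosome 8 with −log10 q of 1.32 and 1.37 in siCtrl replicates 2 and 3. The next, near GPC1 (chr2:240369472-240369650), had 1.32 and 4.72. Just outside were a site on chromosome 20 (chr20:53971205-53971619) with 3.40 and 1.26, and one near CDK5RAP2 (chr9:120544508-120544801) with 1.32 and 1.24. At the limit of the ERE window, 3 of the 331 sites had an ERE with at most 1 mismatch between 100 and 200 bp of the summit, with the nearest centred at 104 bp.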

How the data were processed

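ER ChIP-seq was done in LY2 cells with siCtrl or siCDK12. The authors filtered the reads, aligned them with BWA to GRCh38 and called narrow peaks with MACS2 in each library at a false discovery rate of 0.05; whether the input served as control is not given in the sources used here. They left out 1 divergent replicate per condition, and their differential binding test needs read counts and was not repeated. Per the file headers and format, the deposited values of a peak are a score, a fold ratio of pileup over background, a −log10 p-value and a −log10 q-value, with the summit's offset. Peaks with q-values of 0.05 or above made up 20.4% to 28.0% of the deposited peaks and were left out, as were contigs other than chromosomes 1 to 22, X and Y.

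Whole pileups and local backgrounds were solved from the fold and −log10 p (−log10 p met to within 0.001 at nearly all peaks). Read depth is unknown, since no counts were used; the intervals cover counting error only. As genome background served the smallest value that 50 or more peaks had in common. Chromosome names and peak ends fitted the reference. Genes were from GENCODE 44, with a promoter within 1000 bp of a coding start; repeats were not marked in the reference used, so the repeat feature was not computed. Motifs were searched on both strands within 100 bp of the summit and 1000 bp downstream. McNemar's and Fisher's exact tests were adjusted by Benjamini and Hochberg over 11 and 47 tests, at a threshold of 0.05; scripts were tested on simulated data. Python 3.11.15, SciPy 1.17.1, pandas 2.3.3, numpy 2.4.6 and pysam 0.24.0 were used.

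Named sites were the 15 strongest, the 8 strongest in promoters, those nearest a listed gene, the 5 strongest with a 2-mismatch ERE and the 5 with AP-1, and 2 on each side of the q-value limit. The element of 1 of these sites is not reported here. Sites, lists and tests were chosen with earlier results of these data known.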

Additional observations from a re-analysis of the deposited data

How the results depend on the processing

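The 2-mismatch ERE and the half-site stayed more frequent at the summits than beside them, past the threshold, under all 15 alternatives tried, with differences of 4.52 to 60.5 and 6.70 to 51.2 percentage points. AP-2 kept its call under 10 of 15. The number of sites depended on the rule. It was 199 at a −log10 q of at least 3, 148 at 5 and 129 at a fold of at least 5. It was 193 with up to 2 mismatches allowed and 202 at low local background. The limits on −log10 q and fold held for siCDK12 peaks too, so sites with a weaker siCDK12 peak could enter. Of the 331 sites, 172, 113 and 102 met these limits in both siCtrl libraries. The other motifs past the threshold fell from 2 to 1 at −log10 q of 3 and 5, at a fold of 5, at low background and with motif windows of 50 bp. AP-1 passed with all deposited peaks (4.90 percentage points) and with 0 mismatches allowed in the ERE (5.13), and forkhead passed against windows upstream (-4.53).

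Against lost sites with an ERE, 1 feature passed Fisher's exact test at −log10 q of 3, in place of 3, and 0 at 5, at a fold of 5, with 0 mismatches and at low background, where 0, 0, 1 and 1 had an unadjusted p under 0.05. At a fold of 5 the background difference reversed to -1.42. Against kept sites 0 passed in place of 2 at −log10 q of 3 and 5, at a fold of 5 and at low background (1, 1, 0 and 2 unadjusted). Against gained sites 1 passed at −log10 q of 5, in place of 2, and it was neither the 2-mismatch ERE nor the half-site.

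Leaving out a siCtrl library makes every peak of the other one eligible, so the sites ranged from 379 to 11131 over the 4 libraries left out, with 4384 without siCtrl replicate 2 and 11131 without siCtrl replicate 3. The difference at the summits then ranged from 4.52 to 32.3 for the 2-mismatch ERE, 0.350 to 5.01 for AP-1 and -4.79 to -3.31 for forkhead, with AP-1 past the threshold without siCDK12 replicate 4 and forkhead without siCtrl replicate 2 (-3.83) and 3. Other motifs past the threshold numbered 3 to 6, and features 3 to 6, 2 to 5 and 2 to 8 against lost, kept and gained sites. The background difference ranged from -10.3 to 25.5, reversed without siCtrl replicate 2 and, at -5.55, without siCtrl replicate 3. The 2-mismatch ERE difference from gained sites ranged from 0.421 to 32.03 and lost its call without either siCtrl library. The half-site difference from gained sites ranged from -0.298 to 24.99, reversed without either siCtrl library, the second at -0.225. Against kept sites, the 2-mismatch ERE ranged from -25.6 to 3.08, reversed without siCDK12 replicate 3, and the half-site from -25.3 to 2.204, reversed without siCDK12 replicate 4; both passed without either siCtrl library. Why these values moved was not tested beyond the fewer or more sites that each setting leaves. No paired analysis was possible because replicate 3 is the sole number found in both conditions. Of the 85 named sites tried, 29 to 85 stayed. Peak lists without read counts give no value at a site where no peak is listed, at any q-value.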
